A study of Mus musculus with 24 samples.

Results

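Immediate early genes were read in RNA from the livers of 24 mice, as 10 genes chosen by name: Fos, Fosb, Jun, Junb, Egr1, Atf3, Ier2, Ier3, Klf6 and Myc. All 10 have a row in the p16-3MR table, among 21755 genes. In the wild-type table of 12643 labels only Atf3 and Klf6 could be read, because the labels lack 9 lower-case letters and the other 8 names collapse onto labels that several genes share. The p16-3MR mouse carries a transgene in which the promoter of p16 (Cdkn2a) drives a viral thymidine kinase, so that the prodrug ganciclovir (GCV) kills p16-positive cells. Both genotypes were given GCV or the vehicle (VEH), pH11 water, by intraperitoneal injection on 5 days in a row each month. In p16-3MR mice, batch 1, the monthly treatment began at an age of 16 to 18 months, long before sampling per the study's methods. In wild-type mice, batch 2, which have no transgene, it began at 6 months and went on for 3 months, although the labels also call them age-matched. The labels give the GCV dose as 150 mg/kg, and the study's methods state a lower one. Each genotype has 4 groups of 3 livers, females and males on either treatment. Genotype, age and batch cannot be told apart here, so each table was fitted alone and no value was compared between genotypes.

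On GRCm38 the AP-1 genes lie on chromosome 12 at chr12:85473890-85477273 (Fos, plus strand), chromosome 7 at chr7:19302696-19310051 (Fosb, minus strand), chromosome 4 at chr4:95049034-95052222 (Jun, minus strand) and chromosome 8 at chr8:84974484-84978718 (Junb, minus strand). Ier2 lies on the same chromosome as Junb, at chr8:84661331-84662852, also on the minus strand. Egr1 is at chr18:34859823-34864984, Atf3 at chr1:191170296-191218039, Ier3 at chr17:35821684-35822923, Klf6 at chr13:5861482-5870394 and Myc at chr15:61985391-61990374. All 10 are annotated as protein-coding in GENCODE. Junos, an antisense gene, overlaps the start of Jun.

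Immediate early genes are switched on within minutes of a stimulus, from transcription factors and kinases that are already in the cell, without new protein synthesis. Growth factors, stress and injury reach their promoters through the kinase cascades that activate serum response factor, its ETS partners and CREB, and their messages are short-lived. In liver they are best known from the first hours after partial hepatectomy, and they are also switched on by the handling and dissociation of tissue. Fos, Fosb, Jun and Junb encode subunits of the AP-1 transcription factor. Atf3 encodes a stress-induced repressor of the ATF/CREB family, Egr1 and Klf6 encode zinc-finger transcription factors, and Myc encodes a factor that drives growth and proliferation. Ier2 encodes a nuclear protein of the early response, and Ier3 encodes a small stress-response protein linked to cell survival.

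RefSeq windows of the 250 bases before the gene start were found for 7 of the 10 genes on GRCm38.p6 (Fos, Fosb, Jun, Junb, Atf3, Ier3 and Klf6). Those of Fos, Jun, Junb, Atf3 and Klf6 are shown, 5′ to 3′ on the gene's own strand, because each of them holds a motif of the early response and the levels of these genes are set out one by one below. Capitals mark the short cAMP response motif, the AP-1-like site known from the Jun promoter and the TATA box, all spelled out after the sequences and searched on both strands.
Fos, chr12:85473640-85473889, plus strand: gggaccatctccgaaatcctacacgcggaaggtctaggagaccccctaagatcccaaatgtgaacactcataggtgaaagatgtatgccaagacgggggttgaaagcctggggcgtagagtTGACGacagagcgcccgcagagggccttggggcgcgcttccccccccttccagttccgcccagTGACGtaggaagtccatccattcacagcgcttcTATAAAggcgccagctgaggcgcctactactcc
Jun, chr4:95052223-95052472, minus strand: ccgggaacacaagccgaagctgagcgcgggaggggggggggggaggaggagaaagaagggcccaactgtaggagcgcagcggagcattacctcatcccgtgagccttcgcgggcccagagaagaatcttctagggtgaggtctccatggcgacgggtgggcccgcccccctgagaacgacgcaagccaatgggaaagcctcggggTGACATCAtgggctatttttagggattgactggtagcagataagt
Junb, chr8:84978749-84978998, minus strand: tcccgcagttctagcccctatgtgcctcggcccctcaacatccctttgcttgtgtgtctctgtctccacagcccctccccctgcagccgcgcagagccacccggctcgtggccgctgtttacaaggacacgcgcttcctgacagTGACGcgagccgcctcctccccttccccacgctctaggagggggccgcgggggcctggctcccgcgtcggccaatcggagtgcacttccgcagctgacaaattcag
Atf3, chr1:191183334-191183583, minus strand: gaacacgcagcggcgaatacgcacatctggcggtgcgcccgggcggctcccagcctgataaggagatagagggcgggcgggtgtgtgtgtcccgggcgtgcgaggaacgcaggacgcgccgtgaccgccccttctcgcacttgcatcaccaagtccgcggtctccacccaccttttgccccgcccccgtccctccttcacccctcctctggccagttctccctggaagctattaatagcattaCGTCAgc
Klf6, chr13:5861239-5861488, plus strand: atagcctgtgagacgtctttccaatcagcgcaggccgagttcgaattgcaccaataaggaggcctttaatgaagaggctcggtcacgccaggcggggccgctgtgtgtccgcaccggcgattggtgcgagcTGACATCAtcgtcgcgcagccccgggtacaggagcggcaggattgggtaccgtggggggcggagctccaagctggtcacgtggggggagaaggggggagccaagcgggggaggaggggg

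The window of Fos held TGACG, the core of a cAMP response element, starting 129 and 66 bases before the gene start and the TATA box TATAAA starting 33 bases before it. TGACG was also found in Fosb, 60 bases before the start, in Junb, 106 bases before it, and in Atf3, where it lies on the opposite strand at the end of the window. That makes 4 of 7 windows, and 17.8% of 32851 windows of the same length over the genome hold it. The Atf3 window is taken at the RefSeq start, which lies inside the longer GENCODE gene. The AP-1-like TGACATCA was found in Jun, 45 bases before the start, and in Klf6, 119 bases before it, against 2.93% of all windows. This motif was added after the Jun sequence had been seen. GGGCGG, the GC box, was in 6 of the 7 windows (all but Junb) and in 32.7% of all windows, and TATAAA was in Fos alone and in 12.4% of all windows. None of the 7 windows held the full cAMP response element TGACGTCA (1.55% of all windows), the AP-1 site TGAGTCA (4.46%) or a CArG box, the serum response element (1.47%). No match says only that the letters are not in these 250 bases, and Egr1 was not searched.

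Library totals were 5005760 to 7160172 counts in p16-3MR livers and 3084517 to 5667904 in wild-type livers, and 3 counts, taken as the floor of detection, equalled 0.419 to 0.599 CPM (counts scaled to a common library total) in the p16-3MR livers before TMM scaling. Levels below are CPM after TMM scaling, which assumes that most genes do not differ between livers. GCV-treated female 33 stands apart, with 64.0% of its counts on mitochondrially encoded genes against 12.3% to 22.4% in the other 11 livers, a TMM factor of 0.259, and 13409 genes with a count against 16804 or more elsewhere. GCV-treated male 32 and VEH-treated male 24 have the highest TMM factors, 1.80 and 1.64. Hepatocyte markers were detected throughout, with a summed level of 27381 to 165273 CPM over 10 genes. Cdkn2a, the gene whose promoter drives the transgene, had 0 to 7 counts a liver, too few to check the treatment.

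Across the 12 p16-3MR livers the immediate early genes went up and down together by liver more than by group. Their highest level fell in GCV-treated female 33 for 7 of the 10 and in GCV-treated male 32 for the other 3, while VEH-treated male 24 was among the 3 highest livers for 8. Of the 12409 genes with a mean of at least 10 counts, 19.3% were highest in female 33 and 21.4% in male 32. Male 24 was among the 3 highest livers for 27.5%. These 3 livers, singled out after their values were seen, were the 3 highest for 6 of the 10 genes, and for 4.17% of the 12409 genes with a mean of at least 10 counts. The median gene of the set stood 2.30 (log2) above its own median over the 12 livers in female 33, 1.83 above it in male 32 and 0.90 above it in male 24. The other 9 livers lay between -0.75 (GCV-treated male 34) and 0.25 (GCV-treated male 30).

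**Figure D1:**
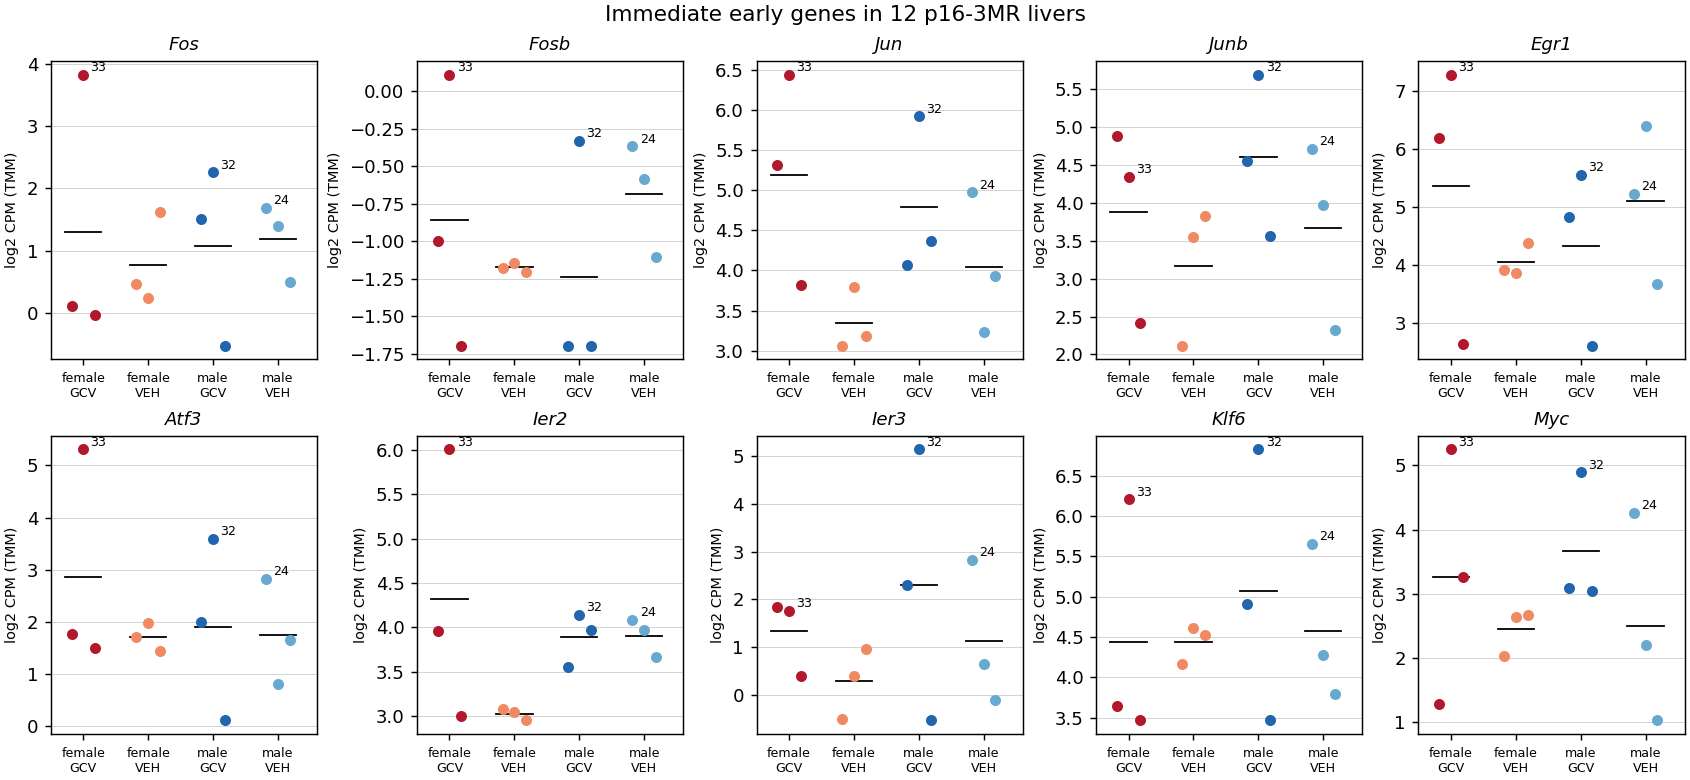
Level of each immediate early gene as log2 CPM after TMM scaling with a prior count of 2, in 12 p16-3MR livers; points are livers, horizontal lines are group means (n = 3), and livers 24, 32 and 33 are numbered. Female 33 holds the highest point for 7 genes and male 32 for Junb, Ier3 and Klf6.

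Among Fos, Fosb, Jun and Junb, Jun had the highest mean level over these livers, 26.9 CPM. Junb was above Jun in VEH-treated female 29, GCV-treated male 30 and VEH-treated male 25. Jund, an AP-1 subunit read with the related genes below, is not part of this ranking. Jun measured 39.3, 86.5 and 13.8 CPM in GCV-treated females 31, 33 and 35, and 8.04, 13.6 and 8.81 CPM in VEH-treated females 27, 28 and 29. In males it measured 16.5, 60.3 and 20.4 CPM after GCV (30, 32 and 34) and 31.2, 9.11 and 15.0 CPM after VEH (24, 25 and 26). The female groups did not overlap, by a margin of 13.8 against 13.6 CPM, and the male groups did. On library totals without TMM the female groups overlapped too, with 13.6 CPM in GCV-treated female 35 and 14.8 CPM in VEH-treated female 28. Junb, whose product can restrain Jun at AP-1 sites, measured 29.3, 20.1 and 5.03 CPM in GCV-treated females and 4.02, 11.4 and 13.8 CPM in VEH-treated females, in the same order of livers. In males it measured 23.1, 51.5 and 11.5 CPM after GCV and 26.02, 15.4 and 4.69 CPM after VEH. Female 35 lay inside the VEH range for Junb, so both sexes overlapped between treatments.

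Fos, the classic partner of Jun, was sparse. It had 2 to 46 counts a liver, which gave 0.771, 13.9 and 0.671 CPM in GCV-treated females and 1.07, 0.868 and 2.77 CPM in VEH-treated females. In males it measured 2.54, 4.49 and 0.384 CPM after GCV and 2.92, 2.32 and 1.09 CPM after VEH. Females 31 and 35 were thus both below every VEH-treated female, and female 33, whose 13.9 CPM rests on 18 counts, was above all of them. Fosb had 0 to 5 counts a liver, at or near the floor everywhere. Its fitted changes enter the counts and medians over the 10 genes below, and nothing is read from their size.

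For Atf3, female 33 stood far above every other liver. Its level was 3.08, 39.4 and 2.52 CPM in GCV-treated females and 2.95, 3.62 and 2.39 CPM in VEH-treated females. In males it was 3.66, 11.7 and 0.768 CPM after GCV and 6.77, 1.43 and 2.81 CPM after VEH. Apart from female 33, GCV-treated and VEH-treated females lay within 2.39 to 3.62 CPM, and the lowest and highest male livers were both GCV-treated.

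Among the zinc-finger factors, Egr1 measured 71.9, 154 and 5.87 CPM in GCV-treated females and 14.7, 14.2 and 20.5 CPM in VEH-treated females. GCV-treated males had 27.9, 46.5 and 5.76 CPM, and VEH-treated males had 36.9, 83.6 and 12.3 CPM. GCV-treated females thus held the highest Egr1 level of the table and, in female 35, nearly the lowest, while the VEH-treated females lay close together. Klf6 measured 12.1, 73.4 and 10.7 CPM in GCV-treated females and 17.6, 24.2 and 22.7 CPM in VEH-treated females. In males its level was 29.6, 113 and 10.8 CPM after GCV and 49.9, 19.1 and 13.6 CPM after VEH. For Klf6, females 31 and 35 were below every VEH-treated female, as for Fos.

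Myc measured 2.12, 37.8 and 9.22 CPM in GCV-treated females and 3.75, 5.93 and 6.04 CPM in VEH-treated females. In males it was at 8.17, 29.4 and 7.88 CPM after GCV and 18.9, 4.29 and 1.72 CPM after VEH. One GCV-treated female, 31, was below the VEH-treated females and the other 2 were above them.

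Ier2 had the smallest within-group spread among the 9 genes other than Fosb. It stood at 15.2, 64.1 and 7.71 CPM in GCV-treated females and at 8.18, 7.96 and 7.43 CPM in VEH-treated females, and in males at 11.4, 17.4 and 15.4 CPM after GCV and 16.7, 15.4 and 12.3 CPM after VEH. Every VEH-treated male was above every VEH-treated female. Ier3 stood at 3.28, 3.09 and 1.01 CPM in GCV-treated females and at 0.402, 1.01 and 1.64 CPM in VEH-treated females. Its male levels were 4.65, 34.9 and 0.384 CPM after GCV and 6.77, 1.25 and 0.625 CPM after VEH. Male 32 held 358 counts of Ier3 and the next liver, male 24, held 58, so that the male average rests on these livers.

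Within groups, most of these genes varied more than genes of like abundance. The within-group SD of log2 CPM was 1.60 for Egr1, which placed it at percentile 97.3 of the 4095 genes whose mean log2 CPM lies within 1 of its own. Ier3 stood at percentile 94.6 (SD 1.70), Klf6 at 93.6 (SD 1.24), Myc at 91.6 (SD 1.41), and Junb and Atf3 both at 90.5 (SD 1.14 and 1.47). Jun was at 87.3 (SD 0.95), Fos at 86.5 (SD 1.40) and Ier2 at 77.5 (SD 0.79), and Fosb, near the floor, at 57.4. Without female 33 the SD of Ier2 was 0.32. The spread was also shared. With group means removed, each gene's log2 CPM followed the mean of the other 9 over the 12 livers with a Pearson r between 0.71 (Junb, Ier2 and Myc) and 0.96 (Klf6), a description in which all genes share the same libraries and the same scaling factors.

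How high female 33 stands depends on the scaling. On library totals without TMM, it is the highest liver for none of the 10 genes and for 0.725% of all 12409 genes. It is then among the 3 highest livers for 4 of the 10, against 1.70% of all genes. Male 32 is the highest for 9, against 48.8% of all genes, with VEH-treated male 25 the highest for Egr1. On totals without mitochondrially encoded genes, female 33 is the highest for 4 (4.39% of all genes) and male 32 for 6 (44.7%). Female 33 is then among the 3 highest livers for 8 of the 10, against 10.3% of all genes. Jun in female 33 is 86.5 CPM with TMM and 22.4 CPM on the library total, against 39.3 and 33.4 CPM in female 31. Male 32 kept a high place in each of these scalings, among the 3 highest livers for 9 genes with TMM and for all 10 with either library total. Of all 12409 genes, 36.3% had male 32 among their 3 highest livers with TMM, 66.2% on library totals and 62.2% on totals without mitochondrially encoded genes. These scalings were tried after the data had been seen.

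**Figure D2:**
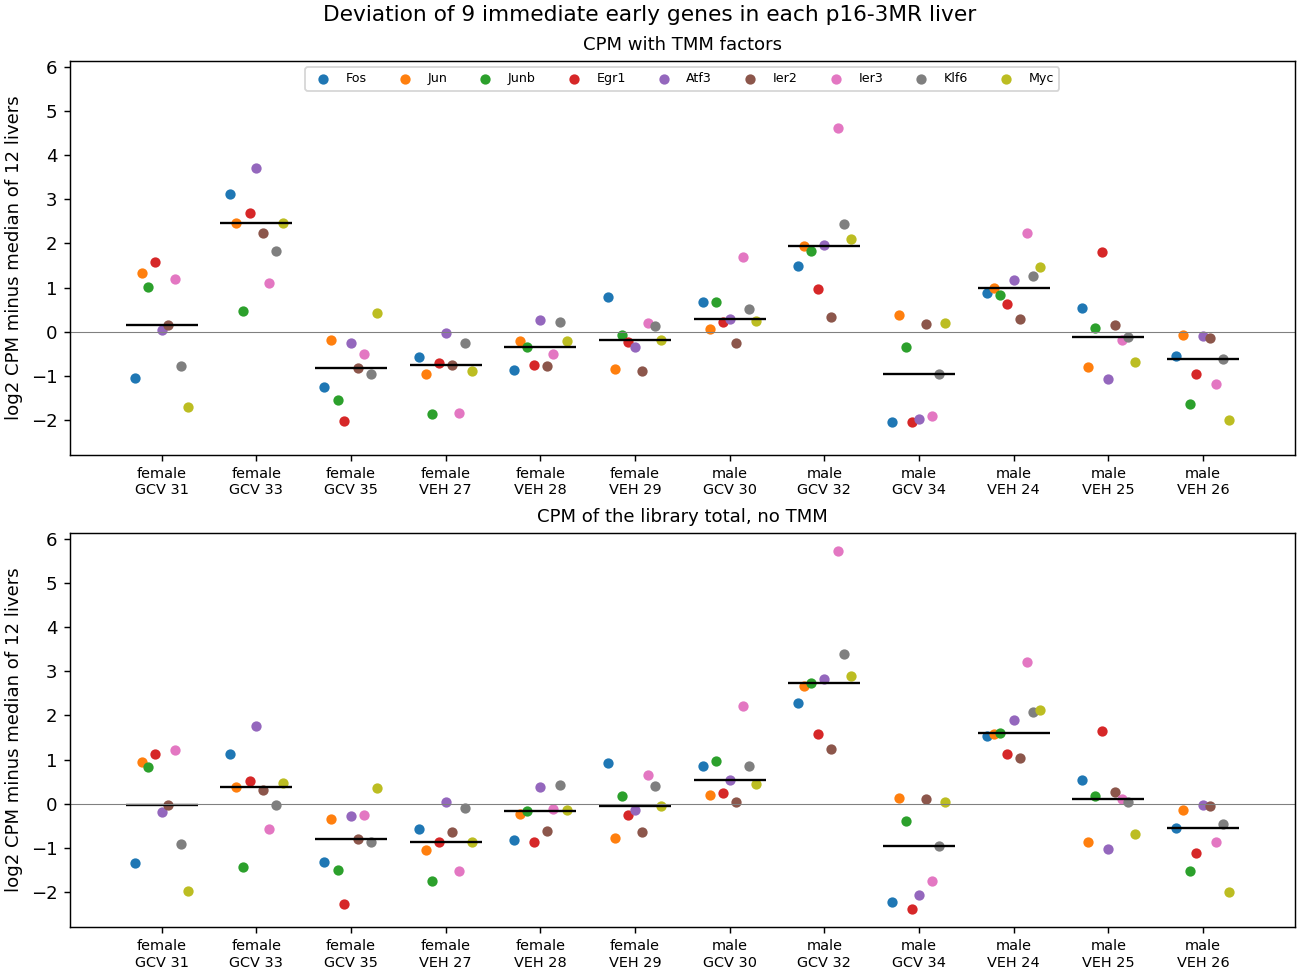
Difference of log2 CPM from the gene's median over 12 p16-3MR livers for 9 immediate early genes (Fosb left out, since it has livers at 0), with TMM factors (top) and on library totals (bottom); points are genes and black lines are medians. Female 33 is the highest liver for 7 of the 10 genes in the first and for none in the second, against 19.3% and 0.725% of 12409 genes. Male 32 is high in both.

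The first comparison asks whether clearing p16-positive cells changed these genes in females. All 10 fitted changes were positive, Fosb near its floor included, with a median of 1.505 (log2) against 0 over all genes, and none passed the test (edgeR quasi-likelihood, Benjamini-Hochberg over 21755 genes). No gene of the table passed edgeR's test (0%), while 1097 genes (5.04%) were higher and 493 lower at an unadjusted p under 0.05. DESeq2 called 90 genes, none of them an immediate early gene. Jun was higher by 2.17 (SE 0.69, 95% interval 0.67 to 3.66, unadjusted p = 0.0079, edgeR adjusted p = 0.652), at a mean of 46.5 ± 36.9 CPM (SD, n = 3) against 10.2 ± 3.01 CPM. Ier2 was higher by 1.83 (SE 0.58, 95% interval 0.58 to 3.08, unadjusted p = 0.0073, edgeR adjusted p = 0.652). These were the 2 of 10 genes under an unadjusted 0.05 by edgeR. DESeq2 put 4 there (lowest DESeq2 adjusted p = 0.111), with 5.94% of all genes higher at that threshold, and edgeR on the 6 female livers alone put 3 there, with 3.83%. Jun was the only one whose female groups did not overlap, with TMM but not on library totals, as was true with TMM, in that direction, of 5.91% of all genes. Egr1 and Atf3 were each higher by 2.21, with SEs of 1.02 and 1.12, and their intervals included 0.

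GCV-treated female 33 set most of this. Without it, the median edgeR change over the 10 genes was 0.27, with 6 higher and 4 lower, and no member was under an unadjusted 0.05. Of all genes, 2.47% were higher at that threshold in this fit. Jun was then higher by 1.32 (edgeR unadjusted p = 0.075), Egr1 by 1.17 and Ier2 by 0.48, while Myc stood at 0.06, Atf3 at -0.15, Klf6 at -0.97 and Fos at -1.18. On library totals without TMM, with female 33 included, the median was 0.35 and 7 of 10 were higher, with the median of all genes at -0.58. On totals without mitochondrially encoded genes these values were 0.82, 9 of 10 and -0.36. In both of these scalings 0 of the 10 genes were under an unadjusted 0.05 by edgeR, Jun and Ier2 included, and the share of all genes that were higher at that threshold was 0.841% and 1.67%. Leaving out GCV-treated female 31 or 35 instead left all 10 positive, with 4 genes higher at an unadjusted p under 0.05 in each case, against 5.09% of all genes without female 31 and 7.77% without female 35, and no adjusted p below 0.135 without female 35. The part of the mitochondrial share of female 33 in these differences was not tested. Bulk RNA cannot tell fewer cells of a type from less RNA per cell.

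**Figure D3:**
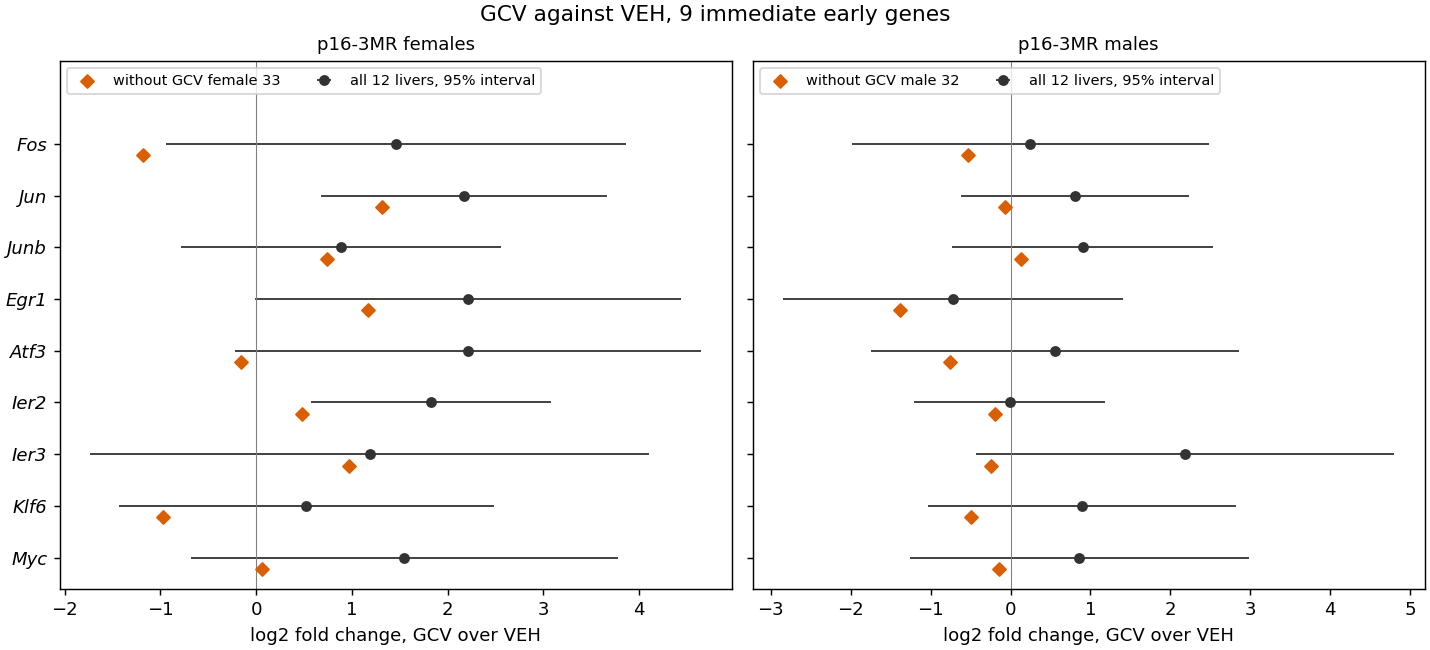
Log2 fold change of GCV over VEH in p16-3MR females (left) and males (right) for 9 immediate early genes, with Fosb left out as near the floor; circles are edgeR estimates from all 12 livers with 95% intervals, and diamonds are estimates without GCV-treated female 33 or male 32. In females Jun and Ier2 have intervals above 0, and without female 33 Fos, Atf3 and Klf6 lie below 0.

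In p16-3MR males the same comparison gave 7 positive and 3 negative changes, with a median of 0.68 against 0.04 over all genes. None passed the test and none was under an unadjusted 0.05. Over the table, 0 of 21755 genes (0%) passed edgeR's test, 231 were higher and 172 lower at an unadjusted p under 0.05, and DESeq2 called 5. Ier3 had the widest difference, 2.18 (SE 1.20, 95% interval -0.43 to 4.80, unadjusted p = 0.093, edgeR adjusted p = 1), at 13.3 ± 18.8 CPM against 2.88 ± 3.38 CPM (SD, n = 3). Junb (0.90), Klf6 (0.89), Myc (0.86) and Jun (0.81) were positive with SEs of 0.66 to 0.97, and Egr1 was negative (-0.72, SE 0.97). No member had GCV-treated and VEH-treated males that did not overlap, against 6.4% of all genes.

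Male 32 and male 24 pulled this comparison in opposite ways. Without male 32, the median change over the 10 genes was -0.37 and 9 of 10 were negative, among them Ier3 (-0.25), Myc (-0.14), Jun (-0.07), Klf6 (-0.50) and Atf3 (-0.76). Without male 24, the median was 1.42, with Ier3 at 3.88 (edgeR unadjusted p = 0.0185) and Myc at 2.38 (edgeR unadjusted p = 0.037), and still no adjusted p under 0.05, while 6.1% of all genes were higher at an unadjusted p under 0.05. Without both, the median was 0.21 and 6 of 10 were positive. The negative lean without male 32 was thus seen only with male 24 kept. Other males moved the median too, to 0.40 without male 25, 0.39 without male 26 and 1.05 without male 34. Without male 34, 1 member was under an unadjusted 0.05, and 1.94% of all genes were higher at that threshold.

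The difference between the sexes in the GCV change was tested directly. It passed for no gene (0 of 21755, 0%, DESeq2 3), and 420 genes (1.93%) were higher and 383 lower at an unadjusted p under 0.05. Ier2 was the only member among them, with a change 1.84 larger in females than in males (SE 0.80, 95% interval 0.12 to 3.55, unadjusted p = 0.038, edgeR adjusted p = 0.980). Without female 33 the difference for Ier2 was 0.50 (edgeR unadjusted p = 0.28), and it was 0.46 on library totals and 1.13 on totals without mitochondrially encoded genes. It stayed under an unadjusted 0.05 without female 31, female 35, male 32 or male 26, and not when any other single liver was left out. With filterByExpr no member was under that threshold, while 1.58% of the genes kept were higher there. DESeq2 put 2 members there, with 1.9% of all genes higher. Egr1 followed at 2.93 (SE 1.40, unadjusted p = 0.059, edgeR adjusted p = 0.980), with females at 2.21 and males at -0.72. The median over the 10 genes was 1.28 with TMM, where the median of all genes was -0.04. It was 0.47 on totals without mitochondrially encoded genes (all genes -0.41) and -0.34 on library totals (all genes -0.66), so in each scaling it lay above the median of all genes. Without female 33 it was -0.42 with TMM, with 4 of 10 positive.

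VEH-treated livers alone were compared between females and males. All 10 genes were lower in females, with a median of -0.77 against -0.05 over all genes. None passed edgeR's test or an unadjusted 0.05, while 24 genes of the table (0.11%) passed the test. At an unadjusted p under 0.05, 319 genes of the table were lower and 269 higher. Ier3 had the widest difference in this direction (-1.51, SE 1.26), followed by Egr1 (-1.42, SE 0.99), and Ier2 differed by -0.91 (SE 0.57, unadjusted p = 0.13, edgeR adjusted p = 1). Without GCV-treated female 33, a liver outside this comparison, Ier2 was under an unadjusted 0.05 (edgeR unadjusted p = 0.0112). In that fit 353 of all genes were lower at that threshold. Ier2, at 7.85 ± 0.39 CPM in females and 14.8 ± 2.22 CPM in males (SD, n = 3), had female livers all below male livers, as had 5.13% of all genes. Fosb did too, but on 1 count in each female and in male 26, which differ only in library size. Male 24 carried much of the rest: without it the median was -0.05, and Atf3 (0.49), Ier3 (0.15), Klf6 (0.41) and Myc (0.83) were higher in females.

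The levels of marker genes for other liver cells moved with some of the same livers. Kupffer cells, the resident macrophages of liver, were read through 10 markers, led by Clec4f, C1qb, Cd5l and Vsig4. Their summed level was 5609 CPM in male 32, 2955 CPM in male 24 and 1602 CPM in male 30, against 171 to 1321 CPM in the other 9 livers, and all 10 markers had their highest level in male 32 (8) or male 24 (2). Neutrophil and monocyte markers summed to 756 CPM in male 32, 377 CPM in VEH-treated female 28, 295 CPM in male 24 and 232 CPM in female 33, with Ly6g, their most specific gene, at 0 in 9 livers. Hepatocyte markers were lowest with TMM in the same male livers, 27381 CPM in 32 and 42874 CPM in 24, against 85830 CPM or more elsewhere, and on library totals they were lower only in female 33. Stellate cell markers were highest in male 32 as well, at 1791 CPM against 230 to 705 CPM, for 9 of 10 markers. The sum of sinusoidal endothelial markers was highest in male 32 (541 CPM) and male 24 (366 CPM) with TMM and on library totals. In male 32, Fcgr2b gave 315 CPM of it, with Stab2, Dnase1l3 and Clec4g at 43.0, 21.4 and 5.37 CPM. Stab2, Dnase1l3 and Clec4g had medians of 33.9, 29.1 and 24.3 CPM over the 12 livers. The sum of lymphocyte markers was highest in male 24 (160 CPM), with 109 CPM from Cd4. Cd79a and Ms4a1 were highest in VEH-treated female 29, and Cd79b in male 32.

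Female 33 differed from these males in its Kupffer markers, which summed to 339 CPM with TMM, at rank 9 from the top. On library totals, which lower every gene of female 33 alike, they summed to 87.7 CPM. That was the lowest of the 12 livers, as was the sum of its stellate cell and sinusoidal endothelial markers. Its hepatocyte markers summed to 165273 CPM, the highest of the 12 livers with TMM, and to 42745 CPM, the lowest, on library totals. Its erythroid markers were the highest with TMM (2292 CPM) and lower than in 4 other livers on library totals (593 CPM). In GCV-treated against VEH-treated females, 10 of 10 Kupffer markers were lower (median -1.42) and none passed the test, while all 10 immediate early genes were higher. In males, 9 of 10 Kupffer markers were higher (median 1.04), again with none past the test, as were 7 of 10 immediate early genes. Lymphocyte markers were lower in GCV-treated females for 10 of 11 (median -1.94) and sinusoidal endothelial markers for 8 of 10 (median -0.77). Each list had 4 genes lower at an unadjusted p under 0.05, as were 493 of all 21755 genes, and none passed the test. In males 9 of 11 lymphocyte markers were higher (median 0.87) and 7 of 10 endothelial markers lower (median -0.22). Neutrophil and monocyte markers were lower for 9 of 10 in females (median -0.40) and higher for 9 of 10 in males (median 1.63), with none under an unadjusted 0.05. Stellate cell markers were lower for 7 of 10 in females (median -0.31) and higher for 8 of 10 in males (median 0.38), 2 of these at an unadjusted p under 0.05 and none past the test. Cholangiocyte markers were higher for 5 of 7 in females (median 0.96) and 7 of 7 in males (median 1.05), 2 in each sex at an unadjusted p under 0.05 and none past the test. Their summed level in female 33 was 202 CPM with TMM, against 81.1 to 148 CPM in VEH-treated females. On library totals it was 52.3 CPM, against 84.5 to 160 CPM. With TMM, Tm4sf4 gave 160 CPM and Sox9 37.1 CPM of the sum in female 33. Krt7, Krt19 and Cldn7 had 0 counts in that liver, and Spp1, at 3.86 CPM, was at its lowest of the 12 livers. The part of these cell types in the levels of the immediate early genes was not tested.

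**Figure D4:**
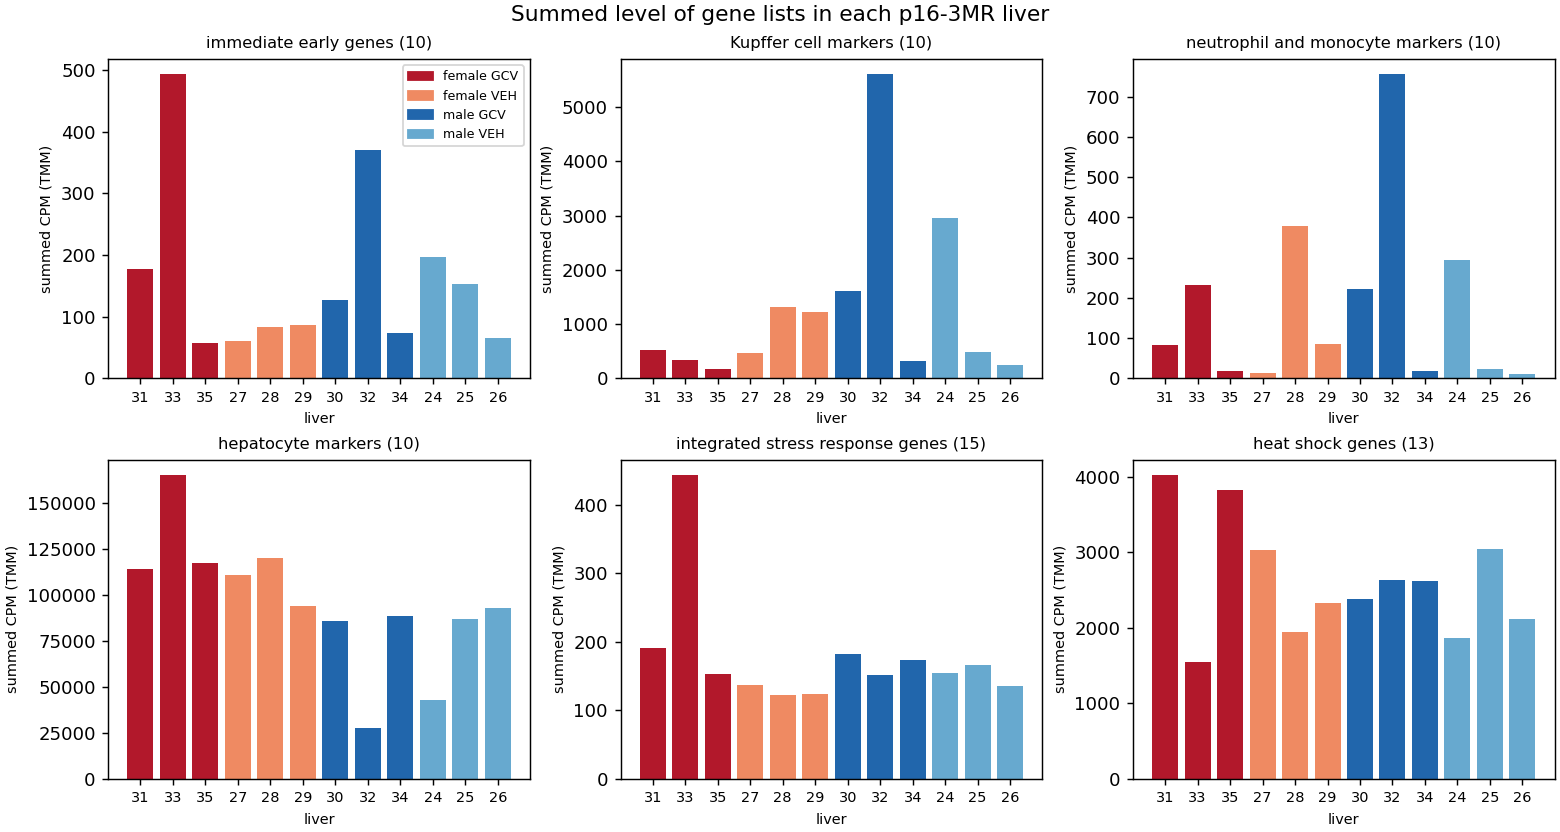
Summed CPM after TMM scaling of the 10 immediate early genes and of 5 other gene lists in each of 12 p16-3MR livers, with the number of genes in brackets and bars coloured by group. Male 32 is highest for Kupffer cell and for neutrophil and monocyte markers, and female 33, in this scaling but not on library totals, for immediate early genes, hepatocyte markers and integrated stress response genes. Atf4 gives 275 CPM of the integrated stress response sum in female 33.

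The rest of the pathway was read from lists of related genes. Other AP-1 and ATF family genes split between directions in females after GCV, with 7 of 18 higher and 11 lower (median -0.17), and in males 12 were higher (median 0.26). None passed the test, as held for every list in these comparisons. Jund, the AP-1 subunit that is expressed at rest, was higher in females by 0.93 (SE 0.37, unadjusted p = 0.026, edgeR adjusted p = 0.672), at 38.2, 39.4 and 14.3 CPM against 15.0 to 17.2 CPM. On library totals, which lower every gene of female 33 alike, it stood at 32.5, 10.2 and 14.1 CPM against 16.3 to 17.9 CPM. The median change of all genes in females was then -0.58. Female 35 was below every VEH-treated female in either scaling, and female 33 on library totals only. Atf4, the factor that translates stress signals into transcription and acts upstream of Atf3, was higher by 1.88 (SE 0.55, unadjusted p = 0.0041, edgeR adjusted p = 0.652). Its level was 96.2, 275 and 43.6 CPM in GCV-treated females and 38.3, 35.02 and 38.5 CPM in VEH-treated females, with no overlap. On library totals female 35 (43.2 CPM) was below VEH-treated female 29 (43.9 CPM), and without female 33 the GCV mean was 69.9 CPM with TMM, against 37.3 CPM.

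Of 32 other immediate early and early response genes in the table, 22 were higher and 10 lower in females after GCV (median 0.34), 4 of them higher at an unadjusted p under 0.05. In males 28 of 32 were higher (median 0.75), 2 at an unadjusted p under 0.05. Btg2, an antiproliferative gene, was higher in females by 1.85 (SE 0.83, unadjusted p = 0.044, edgeR adjusted p = 0.672), with 44.8 CPM in female 33, 8.29 and 6.21 CPM in females 31 and 35, and 2.41, 6.08 and 7.05 CPM in VEH-treated females. Without female 33 its mean was 7.25 CPM after GCV and 5.18 CPM after VEH. Nr4a1, an orphan nuclear receptor of the early response, went the other way, at 0 to 0.503 CPM in GCV-treated females and 0.938 to 1.88 CPM in VEH-treated females (log2 change -2.11, SE 1.06, unadjusted p = 0.067, edgeR adjusted p = 0.672), on very few counts. For 25 of these 32 genes the highest liver was female 33, male 32 or male 24, as it was for 45.2% of the 12409 genes with a mean of at least 10 counts.

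The inducers upstream were read next. Of 22 genes for serum response factor, its ETS partners and the kinases above them, 8 were higher and 14 lower in females (median -0.20), 2 of them higher at an unadjusted p under 0.05, and 11 and 11 in males (median 0.003). With TMM their summed level ran from 527 to 959 CPM in GCV-treated females and from 521 to 773 CPM in VEH-treated females. On library totals, which lower every gene of female 33 alike, these ranges were 248 to 731 CPM and 543 to 839 CPM. Srf itself differed by -0.18 (SE 0.48) in females and 0.02 (SE 0.46) in males. Feedback inhibitors, the phosphatases, RNA-decay factors and adaptors that end the response, were higher for 9 of 24 in females (median -0.10), 2 of them at an unadjusted p under 0.05, and for 20 of 24 in males (median 0.55). Dusp1, a phosphatase that switches off the MAP kinases, differed by -0.06 (SE 0.45) and 0.54 (SE 0.44), and Zfp36, which destabilises short-lived messages, by 0.19 (SE 0.44) and 0.56 (SE 0.43). Partners and antagonists of Myc were higher for 7 of 11 in females and 8 of 11 in males, with Max, the obligate partner, at 0.34 (SE 0.37) and 0.65 (SE 0.36).

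Stress programmes near Atf3 moved unevenly. Integrated stress response genes were higher for 9 of 15 in females (median 0.15), 3 of them at an unadjusted p under 0.05, with 1 lower at that level. With TMM, Atf4 gave 275 CPM of their summed level in female 33. That level was 443 CPM, against 123 to 191 CPM in the other 11 livers. On library totals it was 115 CPM, the lowest of the 12. That scaling lowers every gene of female 33 alike, so nothing is read from this rank. Ddit3, which encodes the stress factor CHOP, measured 20.8, 12.4 and 8.89 CPM in GCV-treated females and 4.15 to 5.09 CPM in VEH-treated females, a difference of 1.65 (SE 0.50, unadjusted p = 0.0050, edgeR adjusted p = 0.652). In this gene female 31, not 33, was the highest. On library totals, where every gene of female 33 is lowered alike, female 33 was at 3.20 CPM, below every VEH-treated female. In males 10 of 15 integrated stress response genes were higher (median 0.25). Heat shock genes, which encode chaperones, were higher for 10 of 13 in females (median 0.74), 2 of them at an unadjusted p under 0.05, and for 6 of 13 in males (median -0.12), and were at their lowest summed level, 1552 CPM, in female 33. Acute phase genes, the inflammation-induced plasma proteins of hepatocytes, were higher for 14 of 18 in females and 18 of 18 in males, 2 of the latter at an unadjusted p under 0.05, and were highest in females 31 and 28, not in the livers where the immediate early genes were highest.

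The genes whose pattern was most like that of the immediate early genes were found by Pearson r between group-centred log2 CPM and the mean of 9 members over the 12 p16-3MR livers, among 12387 genes. The nearest 10 were Slx4, Scimp, Hps3, Hilpda, Nup188, Snx8, Maf1, Map3k8, Fosl2 and Lgals3, with r from 0.99 to 0.98. Fosl2 is itself an AP-1 subunit and Map3k8 a kinase of the MAP kinase cascade. Each of the 10 genes had its highest level in female 33 or male 32. With TMM, Fosl2 stood at 30.1 CPM in female 33 and 21.0 CPM in male 32, and Lgals3, which encodes galectin-3, was 10.9 times its median over the livers in female 33. Library totals lower every gene of female 33 alike. They put its Fosl2 at 7.79 CPM, inside the range of VEH-treated females, 4.61 to 10.4 CPM. The likeness is a description over livers that share one scaling.

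In wild-type livers, Klf6 was even. It measured 13.3, 14.7 and 13.9 CPM in GCV-treated females (4, 5 and 6) and 13.1, 15.7 and 16.5 CPM in VEH-treated females. In males it measured 15.7, 11.5 and 12.8 CPM after GCV (1, 2 and 3) and 11.7, 10.7 and 10.1 CPM after VEH. All 12 livers thus lay within a 1.64-fold range, and the within-group SD of 0.15 (log2) was at percentile 4.64 of 3341 genes of like abundance. Atf3 was near the floor of 0.529 to 0.973 CPM, with 0 to 12 counts a liver. Its level was 0.904, 0 and 0.729 CPM in GCV-treated females and 0.860, 0 and 2.59 CPM in VEH-treated females, and in males 0.629, 0.410 and 0.610 CPM after GCV and 1.33, 1.75 and 2.32 CPM after VEH.

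Neither gene passed a test in wild type. For GCV against VEH in females, Klf6 differed by -0.11 (SE 0.22) and Atf3 by -0.92 (SE 0.91), with edgeR adjusted p = 1 for both, while 4 of 12643 labels (0.0316%) passed. Neither had groups that did not overlap, against 10% of labels in either direction. In males Klf6 differed by 0.29 (SE 0.23) and Atf3 by -1.71 (SE 0.92, 95% interval -3.57 to 0.15, unadjusted p = 0.070, edgeR adjusted p = 0.905), while 0 of 12643 labels (0%) passed, 324 were higher and 288 lower at an unadjusted p under 0.05, and DESeq2 called 1. All GCV-treated males were below all VEH-treated males for Atf3, on 2 counts each against 5 to 12, as were 4.37% of labels. The difference of the change between the sexes was -0.40 for Klf6 (SE 0.32, edgeR adjusted p = 0.998) and 0.79 for Atf3 (SE 1.32), with 0 labels (0%) called by edgeR, 247 higher and 289 lower at an unadjusted p under 0.05, and 1 called by DESeq2. Among VEH-treated livers, Klf6 was higher in females by 0.48 (SE 0.22, 95% interval 0.02 to 0.93, unadjusted p = 0.039, edgeR adjusted p = 0.293), at 15.1 ± 1.78 CPM against 10.8 ± 0.83 CPM (SD, n = 3), with no overlap. Groups that did not overlap in that direction made up 9.82% of labels, 8.02% were higher at an unadjusted p under 0.05, and 4.18% passed edgeR's test in either direction, Klf6 not among them. Without VEH-treated female 5 or 6, or VEH-treated male 2 or 3, Klf6 was no longer under an unadjusted 0.05. DESeq2 did not put it under that threshold either.

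**Figure D5:**
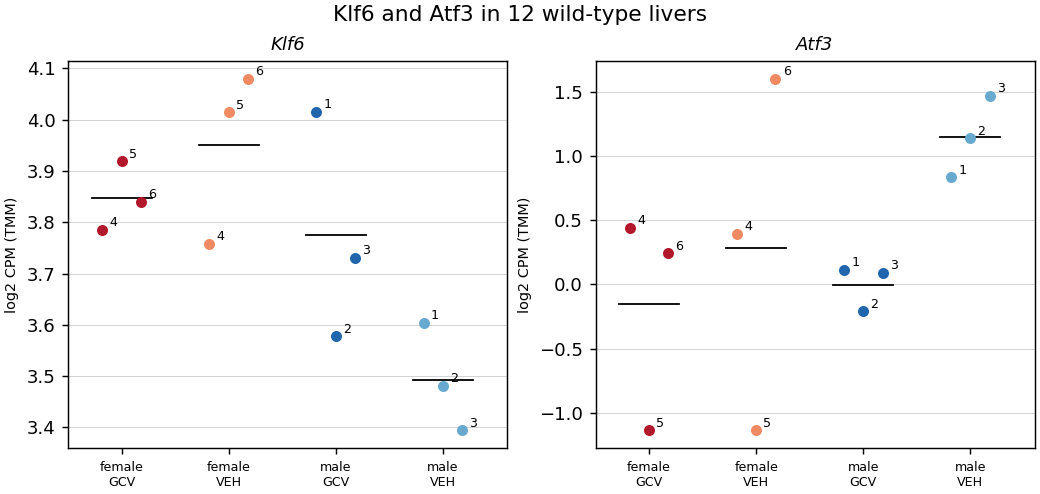
Log2 CPM after TMM scaling with a prior count of 2 of Klf6 and Atf3 in 12 wild-type livers, with livers numbered and group means (n = 3) as lines; Atf3 rests on 0 to 12 counts a liver. Klf6 lies between 10.1 and 16.5 CPM in all livers.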

How the data were processed

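RNA from 24 livers had been sequenced from its 3′ ends (Smart-3SEQ). Per the labels and the study's methods, the authors trimmed reads with Trim Galore 0.6.10, checked them with FastQC 0.11.9, quantified transcripts with Salmon 1.10.3 (build mm10) and summed them to genes with tximport, and they excluded genes with under 3 reads. The deposited values are estimated counts (expected counts), already rounded to whole numbers, 1 table per genotype. Ensembl IDs were matched to symbols for 21698 of 21755 rows of the p16-3MR table. Of 12643 wild-type labels, 10512 matched 1 symbol, 2104 several and 27 none, and only the first were named. Strand use in counting is not given in the sources used here, so reads of Jun and of antisense Junos may not be told apart.

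Each table was fitted with edgeR 4.0.16 in R 4.3.3 (TMM, robust quasi-likelihood, 4 groups) over all genes, with Benjamini-Hochberg adjustment and a threshold of 0.05. Printed CPM are after TMM, and log2 CPM use a prior count of 2. SE is the log2 fold change divided by the root of F. The groups hold 3 livers, from separate mice by their numbers. The named genes are the 10 members, the 4 most abundant genes of each related list, some regulators listed by name and the 10 genes most like the members. The members and lists were chosen with earlier results of these data known. Alternatives were DESeq2 1.42.0, its size factors in edgeR, filterByExpr, the 6 livers of 1 sex, leaving out each liver, prior counts and, in wild type, a block on the number; scalings without TMM and a fit without 2 males were added after seeing the data. The fits were tested on simulated data, from which no value is given here. Motifs were searched in RefSeq promoter windows (GRCm38.p6), and gene positions are from GENCODE on GRCm38.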

Additional observations from a re-analysis of the deposited data

How the results depend on the processing

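No immediate early gene passed the adjusted threshold under any setting tried in either table, and of 1453 values recomputed 1328 kept their direction and size class, 73 moved and 52 reversed; the cause of a change was not tested. The scalings without TMM factors and the fit without males 32 and 24 were chosen after seeing the data. Female 33 was the highest liver for 0 of the 10 genes on library totals (0.725% of all genes) and for 4 without mitochondrial counts (4.39%). Male 32 was the highest for 9 (48.8%) and 6 (44.7%). Female 33 was among the 3 highest livers for 4 of the 10 (1.70% of all genes) and for 8 (10.3%). Values of Fosb rest on 0 to 5 counts and are listed only for their sign. Library totals move the median of all genes to -0.58 in females and to -0.66 for the difference between the sexes. In p16-3MR females, Fos became -0.10, Fosb -0.26 and Klf6 -0.82 on library totals, and Klf6 -0.15 without mitochondrial counts. In males, Ier2 became 0.0013 in the 6 male livers alone, 0.075 on library totals and 0.034 without mitochondrial counts, and Fos became -0.16 without males 32 and 24. For the difference between the sexes, Junb became 0.013 with DESeq2 and 0.0040 with its size factors, Fos -0.57, Atf3 -0.11 and Myc -0.65 on library totals, none below that median, and Klf6 0.10 without males 32 and 24. In VEH-treated livers without those males, Junb became 0.0024, Atf3 0.49, Ier3 0.16, Klf6 0.42 and Myc 0.84.

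Leaving out each liver in turn gave these lowest and highest log2 changes for the genes that reversed. In females they were -1.18 and 2.10 for Fos, -0.53 and 1.40 for Fosb, -0.15 and 2.76 for Atf3, and -0.97 and 0.96 for Klf6, the lowest without female 33. In males they were -0.53 and 0.73 for Fos, -0.071 and 1.45 for Jun, -1.39 and 0.12 for Egr1, -0.76 and 1.39 for Atf3, -0.19 and 0.11 for Ier2, -0.25 and 3.88 for Ier3, -0.50 and 1.69 for Klf6, and -0.14 and 2.38 for Myc, the lowest without male 32. For the difference between the sexes they were -1.42 and 1.89 for Fos, -0.76 and 0.68 for Junb, -0.69 and 2.87 for Atf3, -2.76 and 1.38 for Ier3, -1.84 and 0.92 for Klf6, and -0.93 and 1.59 for Myc, the highest without male 32. In VEH-treated livers they were -0.69 and 0.49 for Atf3, -2.05 and 0.15 for Ier3, -0.69 and 0.41 for Klf6, and -1.15 and 0.83 for Myc, the highest without male 24. In wild-type females Atf3 ranged from -1.48 to 0.30.

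Counts of genes called over the whole table moved more. DESeq2 called 90, 5, 3 and 102 genes in the p16-3MR comparisons (females, males, sex difference, VEH livers) against 0, 0, 0 and 24 with edgeR, and 17, 1 and 1 in wild-type females, males and their difference against 4, 0 and 0. The 6 female livers alone gave 3 (p16-3MR) and 40 (wild type), filterByExpr gave 2 in wild-type females, and without males 32 and 24 the p16-3MR counts were 1, 2, 0 and 41. With a liver left out, the p16-3MR count in VEH livers ran from 15 (without VEH-treated female 27) to 29, and the other p16-3MR counts from 0 to 1. Wild-type counts ran from 2 to 24 in females, 0 to 44 in males, 0 to 22 for their difference and 322 to 787 in VEH livers. Equal numbers in wild type were not taken as pairs, since not every same-numbered pair correlated above 0.1 in its deviations from the group means: such pairs ran from -0.055 to 0.0020 in females (mean -0.033, different numbers 0.017) and from -0.074 to 0.29 in males (mean 0.14, different numbers -0.072), where 2 of 3 were above 0.1. With the replicate block, 54 genes were called in females, 11 in males and 26 for the difference, with Klf6 at -0.11, 0.29 and -0.40, Atf3 at -0.93, -1.68 and 0.75, and neither called. p16-3MR groups share no numbers. Depth limits Fos, Fosb, Ier3 in females, and wild-type Atf3, which rest on few counts.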
